A study of Mus musculus with 18 samples.

Results

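The 59 genes described here code for proteins that carry a cell through mitosis and move its chromosomes. They were taken by gene symbol from a table of 22019 protein-coding genes, and all 59 were found and passed the filter on low values, as did 16021 genes in all. The RNA came from NIH 3T3 cells, a mouse fibroblast line, that carried the Tet-ON 3G transactivator and a doxycycline-inducible construct. SUN1L cells expressed the lumenal domain of SUN1 with a KDEL sequence that holds it in the endoplasmic reticulum, a dominant negative that disrupts the LINC complex, the bridge between nucleus and cytoskeleton. KDEL control cells expressed GFP retained in the same compartment. Both lines were made by retroviral transduction and puromycin selection, and only the KDEL cells were further sorted for fluorescence, so that the sort and the construct cannot be told apart. All cells received doxycycline at 1 µg/ml for 48 hr on fibronectin-coated polyacrylamide gels of 1 kPa (soft) or 308 kPa (stiff).

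The 18 libraries are named here by the serial number in their titles. KDEL cells on 1 kPa gave libraries 4, 16 and 28, SUN1L cells on 1 kPa libraries 3, 15 and 27, KDEL cells on 308 kPa libraries 8, 20 and 32, and SUN1L cells on 308 kPa libraries 7, 19 and 31. KDEL cells on 308 kPa were also treated with 25 µM Y27632 (libraries 12, 24 and 36), or with 10 µM blebbistatin, an inhibitor of myosin II (libraries 10 and 22). Library 34 has labels that name both inhibitors and an empty vector, and it was put in no group. Its values come from a column matched to it by the label in the header, since the number of that column differs from the one in the title. Values are normalised signal, in which 1 is the lowest value in the table, and they are not divided by gene length, so that they are compared between libraries and not between genes. The libraries held about 12670000 to 19460000 read pairs, with the most frequent low value of each column taken as 1 read pair. Most values were not whole multiples of it, so numbers of read pairs given here are rough estimates. Sun1 stood at 38452 to 82617 in the 6 SUN1L libraries and at 2785 to 3799 in the other 12, which matches the construct label of each library.

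As background, entry into mitosis is driven by the kinase CDK1 bound to B-type cyclins, with Polo-like and Aurora kinases acting beside it. Condensins and topoisomerase II fold the chromosomes, kinetochore proteins attach them to spindle microtubules, and kinesin motors move them. The spindle checkpoint holds back the anaphase-promoting complex until all chromosomes are attached, after which securin is destroyed, separase cuts cohesin and cytokinesis divides the cell. Many of these genes are transcribed late in the cell cycle, under the DREAM and MuvB complexes, B-MYB and FOXM1, which act through a sequence called the CHR. Many also carry CCAAT boxes, which are bound by a separate factor, NF-Y. Such late genes therefore serve as markers of dividing cells in a culture.

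In 3 libraries, 1 each of SUN1L cells on 1 kPa (library 3), SUN1L cells on 308 kPa (library 7) and KDEL cells on 308 kPa (library 8), nearly all of the 59 genes were low. These libraries were singled out because genes of dividing cells are low in them, so the low values below describe the libraries and are not a test. The mean log2 value over the 59 genes was 8.60 in library 3, 8.82 in library 7 and 9.03 in library 8, against 11.08 to 11.78 in the other 15 libraries. Over all 16021 genes tested, the same mean ranged from 7.78 to 7.89 across the 18 libraries. In each of the 3 libraries, 57 of the 59 genes were at least 2-fold below the other libraries of the same group, against 7.86% of all genes tested in library 3, 8.46% in library 7 and 9.63% in library 8. For 58 of the 59 genes, libraries 3, 7 and 8 were the lowest of the 18, a pattern held by 12.9% of all genes tested. The exception was Bub3. Libraries 4, 10 and 12, whose serial numbers lie in the same run, had means of 11.51, 11.18 and 11.32. A bulk library cannot tell fewer dividing cells from less of these RNAs in each cell. Below, genes set beside those given in every library were chosen after their values were seen.

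**Figure D1:**
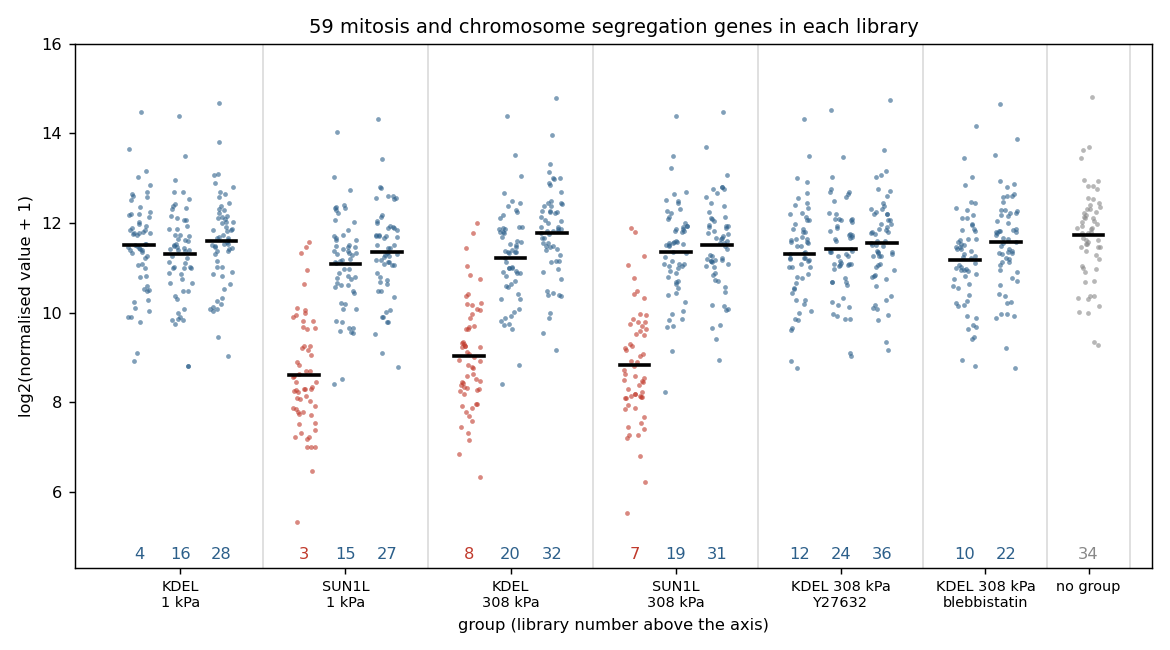
Each point is 1 of the 59 genes in 1 library, on the log2(value + 1) scale, and the black bar is the mean of the library (11.08 to 11.78 in 15 libraries). Libraries 3, 7 and 8, in red, have means of 8.60, 8.82 and 9.03, and library 34, in grey, has no group.

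Among the genes of mitotic entry, Ccnb1 (ENSMUSG00000041431, chr13:100778650-100786570, minus strand), which encodes cyclin B1, had values of 4173, 3396 and 4364 in KDEL cells on 1 kPa, 313, 2920 and 3646 in SUN1L cells on 1 kPa, 597, 3564 and 4796 in KDEL cells on 308 kPa, 475, 3895 and 3813 in SUN1L cells on 308 kPa, 3213, 3478 and 3648 with Y27632 and 2831 and 4228 with blebbistatin. The 3 low libraries stood apart from all others, and without them every group lay between 2831 and 4796. Cdk1 (ENSMUSG00000019942, chr10:69336635-69352938, minus strand), the kinase that cyclin B1 activates, had values of 4494, 4314 and 5584 in KDEL cells on 1 kPa, 607, 3372 and 4231 in SUN1L cells on 1 kPa, 993, 3831 and 6621 in KDEL cells on 308 kPa, 851, 4390 and 5581 in SUN1L cells on 308 kPa, 4044, 4354 and 5066 with Y27632 and 4031 and 4793 with blebbistatin. The difference was smaller than for its partner, with the other libraries of the group 6.22-fold above library 3, 5.81-fold above library 7 and 5.07-fold above library 8, against 10.39, 8.09 and 6.91-fold for Ccnb1. Cdc25b and Cdc25c encode phosphatases that switch CDK1 on, and they differed: the other libraries of the group were 3.26, 3.66 and 3.80-fold above libraries 3, 7 and 8 for Cdc25b, and 11.16, 8.42 and 5.10-fold above them for Cdc25c. Cdc25c had the lowest value of any of the 59 genes, 39.1 in library 3, which is about 16.8 read pairs. Outside the 3 libraries no value lay below 297, about 119 read pairs.

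Plk1 (ENSMUSG00000030867, chr7:122159437-122169875, plus strand), the Polo-like kinase of mitotic entry and spindle assembly, had values of 2374, 2026 and 2637 in KDEL cells on 1 kPa, 182, 1569 and 2253 in SUN1L cells on 1 kPa, 311, 1670 and 2848 in KDEL cells on 308 kPa, 202, 1950 and 2476 in SUN1L cells on 308 kPa, 1858, 2128 and 2162 with Y27632 and 1598 and 2150 with blebbistatin. Aurkb (ENSMUSG00000020897, chr11:69045647-69051664, plus strand), the kinase of the chromosomal passenger complex that corrects faulty attachments, had values of 2955, 2681 and 3424 in KDEL cells on 1 kPa, 314, 2017 and 2893 in SUN1L cells on 1 kPa, 454, 2374 and 3756 in KDEL cells on 308 kPa, 278, 2553 and 3094 in SUN1L cells on 308 kPa, 2578, 3095 and 3121 with Y27632 and 2420 and 3173 with blebbistatin. Both genes had libraries 3, 7 and 8 far below every other library, and the remaining libraries of the 6 groups overlapped. Within the passenger complex the differences were unequal. The other libraries of the group were 11.54, 12.63 and 9.73-fold above libraries 3, 7 and 8 for Birc5, which encodes survivin, but 3.73, 4.60 and 4.35-fold for Incenp, the scaffold of the complex.

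In the spindle checkpoint, Bub1b (ENSMUSG00000040084, chr2:118598211-118641591, plus strand), which encodes BUBR1, had values of 2555, 2069 and 2943 in KDEL cells on 1 kPa, 218, 1758 and 2314 in SUN1L cells on 1 kPa, 346, 2039 and 3428 in KDEL cells on 308 kPa, 270, 2168 and 2475 in SUN1L cells on 308 kPa, 2348, 2279 and 2671 with Y27632 and 2212 and 2639 with blebbistatin. Bub3 (ENSMUSG00000066979, chr7:131560391-131571898, plus strand), which recruits BUB1 and BUBR1 to the kinetochore, had values of 3479, 3121 and 3667 in KDEL cells on 1 kPa, 2590, 2749 and 3228 in SUN1L cells on 1 kPa, 2775, 2937 and 4256 in KDEL cells on 308 kPa, 2467, 3000 and 3929 in SUN1L cells on 308 kPa, 3134, 3181 and 3563 with Y27632 and 3065 and 3394 with blebbistatin. Bub1b was low in the 3 libraries in the same way as Ccnb1, whereas Bub3 was close to its level elsewhere, with the other libraries of the group 1.15, 1.39 and 1.27-fold above libraries 3, 7 and 8. Library 15 of the SUN1L cells, at 2749, lay below library 8, at 2775, which is why Bub3 was the exception among the 59. Bub1, Ttk and Mad2l1, which encode the other checkpoint proteins of the list, had log2 differences from the other libraries of the group, averaged over the 3 libraries, of -3.05, -2.88 and -2.11.

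At the kinetochore, Cenpe (ENSMUSG00000045328, chr3:135212563-135273540, plus strand), a kinesin that carries chromosomes to the spindle equator, had values of 4823, 4264 and 5331 in KDEL cells on 1 kPa, 414, 3392 and 4103 in SUN1L cells on 1 kPa, 598, 3844 and 5523 in KDEL cells on 308 kPa, 623, 4066 and 4852 in SUN1L cells on 308 kPa, 4299, 4338 and 4727 with Y27632 and 3645 and 4773 with blebbistatin. The 4 subunits of the NDC80 complex, which binds microtubule ends, were not equally low: averaged over libraries 3, 7 and 8, the log2 difference from the other libraries of the group was -3.16 for Nuf2, -2.76 for Ndc80, -2.55 for Spc24 and -2.03 for Spc25. Kif11 (ENSMUSG00000012443, chr19:37376403-37421859, plus strand), the motor that pushes spindle poles apart, had values of 3517, 2818 and 3229 in KDEL cells on 1 kPa, 281, 2244 and 2431 in SUN1L cells on 1 kPa, 483, 2712 and 3488 in KDEL cells on 308 kPa, 397, 3088 and 2315 in SUN1L cells on 308 kPa, 3040, 2605 and 3427 with Y27632 and 2752 and 3568 with blebbistatin. Cenpe and Kif11 were lowest in library 3, and both showed no overlap between libraries 3, 7 and 8 and the rest. Among the other kinesins the mean log2 difference ran from -3.13 for Kif2c, which takes microtubules apart, to -1.81 for Kif18a, which dampens chromosome movement.

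Top2a (ENSMUSG00000020914, chr11:98992943-99024189, minus strand), the topoisomerase that untangles sister chromatids, had values of 22926, 21637 and 26156 in KDEL cells on 1 kPa, 2820, 16706 and 20603 in SUN1L cells on 1 kPa, 4071, 21461 and 28331 in KDEL cells on 308 kPa, 3583, 21642 and 22942 in SUN1L cells on 308 kPa, 20350, 23475 and 27489 with Y27632 and 18382 and 25836 with blebbistatin. The condensin subunits differed less than most of the 59 genes, apart from Ncapg, which lay close to their median, with mean log2 differences of -2.68 for Ncapg, -2.07 for Ncapd2, -1.84 for Ncaph, -1.82 for Smc2 and -1.71 for Smc4, and the median of the condensin and topoisomerase genes was -1.96. Cdc20 (ENSMUSG00000006398, chr4:118432901-118437352, minus strand), which activates the anaphase-promoting complex, had values of 6590, 5461 and 6646 in KDEL cells on 1 kPa, 900, 4983 and 6179 in SUN1L cells on 1 kPa, 1082, 4426 and 7653 in KDEL cells on 308 kPa, 791, 5061 and 6978 in SUN1L cells on 308 kPa, 5374, 6570 and 6228 with Y27632 and 4433 and 6244 with blebbistatin. Its values in libraries 3, 7 and 8 were 6.16, 7.51 and 5.38-fold below the other libraries of the group. Ube2c, the ubiquitin-conjugating enzyme that works with that complex, was 8.61, 10.09 and 7.53-fold below them, whereas Pttg1, which encodes securin, was 3.04, 3.35 and 3.44-fold below.

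Ckap5 (ENSMUSG00000040549, chr2:91526762-91620664, plus strand), a microtubule polymerase at spindle poles and kinetochores, had values of 5844, 5310 and 5124 in KDEL cells on 1 kPa, 3067, 5158 and 4483 in SUN1L cells on 1 kPa, 3487, 5334 and 5785 in KDEL cells on 308 kPa, 3819, 5852 and 4368 in SUN1L cells on 308 kPa, 5593, 4709 and 5305 with Y27632 and 5598 and 6160 with blebbistatin. It was the only one of the 59 genes other than Bub3 that was less than 2-fold lower in the 3 libraries, by 1.57, 1.32 and 1.59-fold. Prc1 (ENSMUSG00000038943, chr7:80294450-80316259, plus strand), which bundles microtubules at the midzone before cytokinesis, had values of 3890, 3399 and 4140 in KDEL cells on 1 kPa, 382, 2814 and 3354 in SUN1L cells on 1 kPa, 652, 3713 and 4859 in KDEL cells on 308 kPa, 538, 3899 and 3479 in SUN1L cells on 308 kPa, 3744, 3882 and 4044 with Y27632 and 3193 and 4534 with blebbistatin. In the other cytokinesis genes, Anln, Racgap1 and Ect2, the mean log2 differences were -2.51, -2.51 and -2.27, and Prc1 had -2.83.

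Mki67 (ENSMUSG00000031004, chr7:135689788-135716379, minus strand), which encodes the proliferation marker Ki-67, had values of 12823, 11643 and 14320 in KDEL cells on 1 kPa, 822, 8365 and 11013 in SUN1L cells on 1 kPa, 1320, 11662 and 15960 in KDEL cells on 308 kPa, 993, 11489 and 13253 in SUN1L cells on 308 kPa, 11593, 11342 and 12615 with Y27632 and 11278 and 15015 with blebbistatin. Averaged over the 3 libraries it showed the largest difference of the 59 genes, at 11.67-fold in library 3, 12.41-fold in library 7 and 10.33-fold in library 8. Foxm1 (ENSMUSG00000001517, chr6:128362967-128375893, plus strand), a transcription factor of late cell cycle genes, had values of 6144, 5089 and 6140 in KDEL cells on 1 kPa, 804, 4277 and 6072 in SUN1L cells on 1 kPa, 1071, 4996 and 7384 in KDEL cells on 308 kPa, 832, 4952 and 6134 in SUN1L cells on 308 kPa, 4697, 5792 and 5570 with Y27632 and 4653 and 6269 with blebbistatin. Its values in the 3 libraries were 6.33, 6.61 and 5.67-fold below those of the other libraries of the group, a difference near the middle of the 59 genes.

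The order of the 59 genes was alike in the 3 libraries, which belong to 3 different groups and share no library among their group mates. Across the 59 genes, Spearman's rho of the log2 difference was 0.822 between libraries 3 and 7, 0.834 between libraries 3 and 8 and 0.873 between libraries 7 and 8. The points are genes of the same libraries, not replicates, and share each library's depth and scaling. Mki67, Birc5 and Plk1 had the largest SD of log2 values over the 18 libraries (1.39, 1.38 and 1.27), and Bub3, Ckap5 and Ckap2 the smallest (0.21, 0.28 and 0.55). Without libraries 3, 7 and 8 the SD of the 59 genes lay between 0.14 and 0.36. By role, the median of the mean log2 difference was -2.98 for centromere and outer kinetochore genes, -2.89 for mitotic kinases, -2.88 for the spindle checkpoint, -2.86 for cyclins, CDK1 and its phosphatases, -2.84 for kinesins, -2.51 for cytokinesis genes and -1.96 for condensin and topoisomerase genes.

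**Figure D2:**
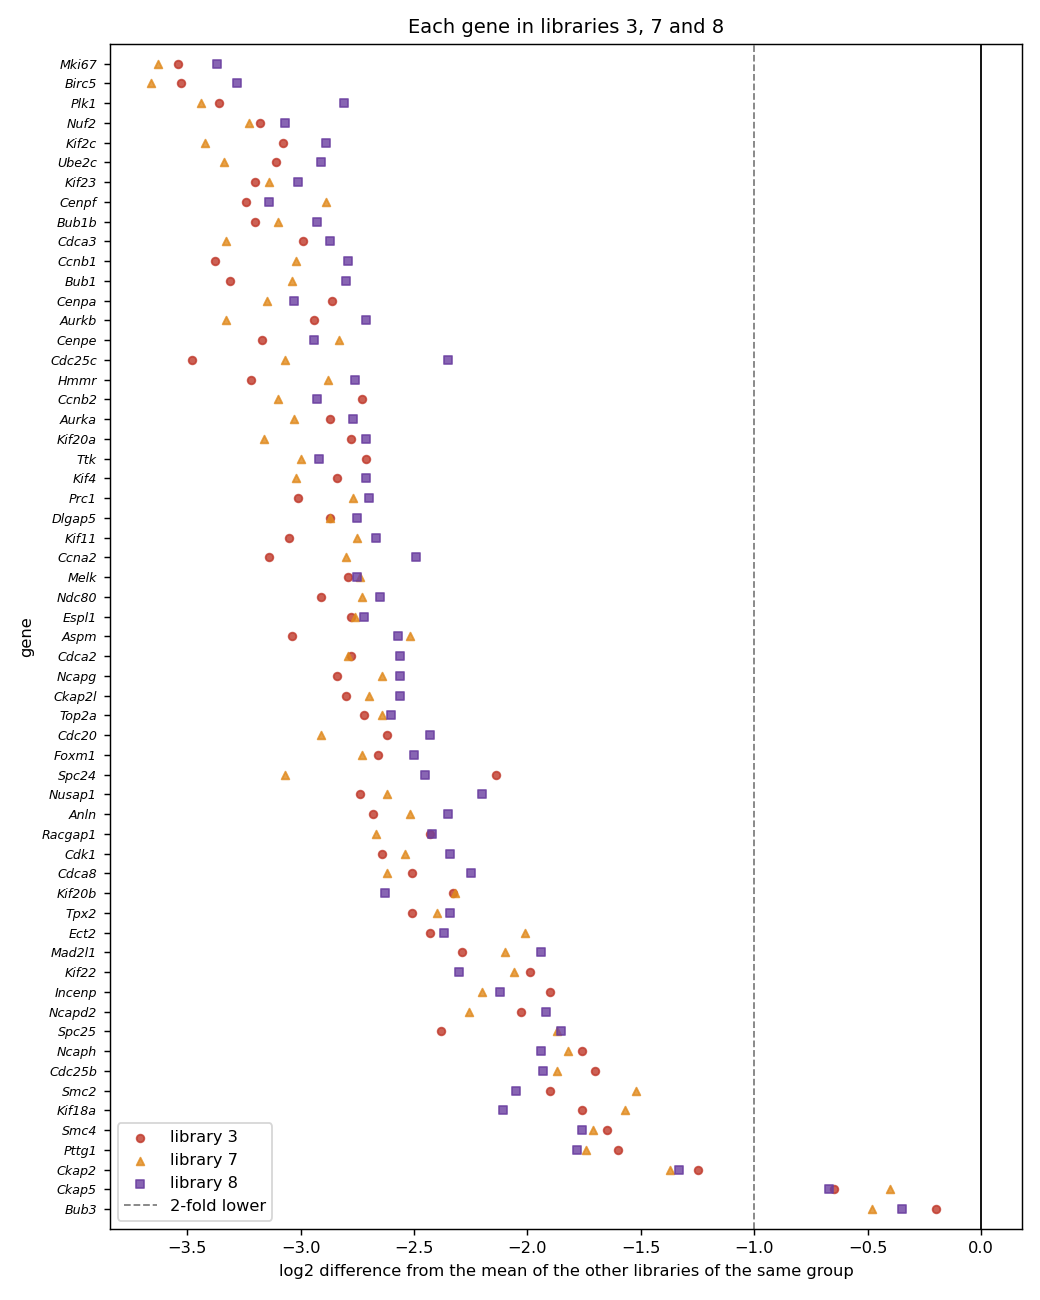
Log2 difference of each of the 59 genes between library 3, 7 or 8 and the mean of the other libraries of its group, on the horizontal axis, with genes ordered by the mean of the 3. Mki67 (-3.54, -3.63 and -3.37) is at the top, and Ckap5 and Bub3, at the bottom, are the only genes right of the dashed line that marks 2-fold.

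Promoter sequences are shown for Mki67 and Plk1, which differed by large amounts in libraries 3, 7 and 8, for Cdc20 and Cdk1, which lay nearer the middle of the 59 genes, and for Ckap5 and Bub3, which differed least, because the CHR and CCAAT letters are the sequence feature these genes are known to share. RefSeq windows of 300 bases on GRCm38.p6, from 250 bases before to 50 after the start, were found for 48 of the 59 genes. None was used for Ccna2, Aurkb, Kif20a, Tpx2, Incenp, Cdca2, Smc4, Spc24, Cdc25c, Foxm1 and Dlgap5. The windows are chr4:118437294-118437593 (minus strand) for Cdc20, chr10:69352863-69353162 (minus) for Cdk1, chr7:122159185-122159484 (plus) for Plk1, chr7:135716330-135716629 (minus) for Mki67, chr2:91526512-91526811 (plus) for Ckap5 and chr7:131560120-131560419 (plus) for Bub3. Each is written 5′ to 3′ along the gene's strand, and capitals mark TTTGAA or TTCGAA (the CHR letters) and CCAAT, on either strand, so that TTCAAA and ATTGG are the same letters read from the other strand.
Cdc20: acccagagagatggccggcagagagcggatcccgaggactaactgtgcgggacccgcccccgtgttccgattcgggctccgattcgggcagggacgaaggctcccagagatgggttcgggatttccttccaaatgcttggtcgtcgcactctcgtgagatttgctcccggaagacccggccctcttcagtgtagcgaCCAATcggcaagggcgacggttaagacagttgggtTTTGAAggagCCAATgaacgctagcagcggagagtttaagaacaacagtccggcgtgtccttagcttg
Cdk1: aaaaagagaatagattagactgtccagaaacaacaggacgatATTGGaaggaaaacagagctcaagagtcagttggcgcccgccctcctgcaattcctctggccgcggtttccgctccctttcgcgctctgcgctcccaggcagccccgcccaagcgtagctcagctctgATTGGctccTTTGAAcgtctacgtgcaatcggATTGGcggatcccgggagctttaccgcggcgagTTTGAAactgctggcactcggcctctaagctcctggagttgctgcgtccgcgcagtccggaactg
Plk1: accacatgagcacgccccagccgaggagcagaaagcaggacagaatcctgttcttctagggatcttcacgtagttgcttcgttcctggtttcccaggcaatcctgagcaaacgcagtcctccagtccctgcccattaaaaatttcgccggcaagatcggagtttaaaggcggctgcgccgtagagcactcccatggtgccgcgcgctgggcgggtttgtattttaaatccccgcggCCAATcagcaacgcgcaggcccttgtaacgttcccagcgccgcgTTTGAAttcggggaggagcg
Mki67: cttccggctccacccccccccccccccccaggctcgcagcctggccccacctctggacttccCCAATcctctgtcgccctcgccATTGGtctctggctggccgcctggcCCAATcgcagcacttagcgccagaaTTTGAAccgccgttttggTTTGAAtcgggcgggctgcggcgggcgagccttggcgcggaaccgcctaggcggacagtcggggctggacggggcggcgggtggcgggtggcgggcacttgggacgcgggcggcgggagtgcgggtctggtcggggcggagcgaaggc
Ckap5: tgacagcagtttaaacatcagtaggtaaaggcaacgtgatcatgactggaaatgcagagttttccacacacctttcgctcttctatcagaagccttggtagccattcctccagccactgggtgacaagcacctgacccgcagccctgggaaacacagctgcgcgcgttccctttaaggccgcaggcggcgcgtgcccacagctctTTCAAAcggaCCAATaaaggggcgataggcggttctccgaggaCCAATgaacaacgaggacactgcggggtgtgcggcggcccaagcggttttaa
Bub3: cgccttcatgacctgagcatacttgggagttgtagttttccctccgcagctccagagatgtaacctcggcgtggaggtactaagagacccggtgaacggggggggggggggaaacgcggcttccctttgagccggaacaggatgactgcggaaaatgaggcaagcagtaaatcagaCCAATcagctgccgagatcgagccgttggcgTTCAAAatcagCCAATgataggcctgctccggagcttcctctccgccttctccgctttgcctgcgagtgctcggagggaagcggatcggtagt

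The window of Cdc20 held TTTGAA at -18 and CCAAT at -53 and -8, counted in bases from the start to the first base of the match. Of the 48 windows, 38 (79.2%) held the CHR letters on either strand, against 21.7% of the windows of 27025 genes and 16.7% of those of 11738 genes tested here. CCAAT was found in 36 of the 48 (75.0%), against 41.1% of all windows, and 34 of the 48 (70.8%) held both, against 9.7%. The median log2 difference in libraries 3, 7 and 8 was -2.73 in the 38 genes with CHR letters and -2.64 in the 10 without, and it was -2.78 in the 36 genes with CCAAT and -2.51 in the 12 without. Bub3 and Ckap5, the genes that differed least, held both, and Birc5 and Nuf2, which were among those that differed most, held neither. A match of letters is a description, and an absence says only that they are not in this window.

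Other genes of the cell cycle were followed in the same 3 libraries as lists. Of 45 further mitotic kinases, phosphatases and regulators tested, 37, 37 and 35 were at least 2-fold lower in libraries 3, 7 and 8, with medians of -2.01, -1.94 and -1.95 log2 units. Of 22 other kinetochore and inner centromere genes, 16, 16 and 17 were, with medians of -1.74, -1.89 and -1.56. Of 48 S phase and replication genes, 42, 45 and 42 were, with medians of -1.77, -1.76 and -1.76. The 15 subunits and partners of the anaphase-promoting complex had medians near the level of their group, at -0.11, -0.12 and -0.06, unlike their activator Cdc20. Of the 15, 1, 2 and 0 were at least 2-fold lower, against 7.86%, 8.46% and 9.63% of all genes tested. The 16 cohesin genes had medians of -0.13, 0.19 and -0.15, and 5 of them were at least 2-fold lower in each of the 3 libraries, among them Esco2 (142 to 164 against 570 to 1157), which acetylates cohesin in S phase, and Sgol1 (216 to 357 against 1159 to 2167), which protects cohesin at centromeres. These names, and those of single genes in the next sentences, were chosen after their values were seen. The 13 genes of a list of DREAM and MuvB factors had medians of -0.79, -0.74 and -1.13, and 6, 5 and 7 of them were at least 2-fold lower. That list also takes in E2f1, E2f7 and E2f8, so these values do not describe the complexes alone. In the list, Mybl2, which encodes B-MYB, stood at 171 to 230 against 1450 to 2907, whereas Rbl2, a pocket protein of DREAM, stood at 854 to 1061 against 573 to 1044.

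**Figure D3:**
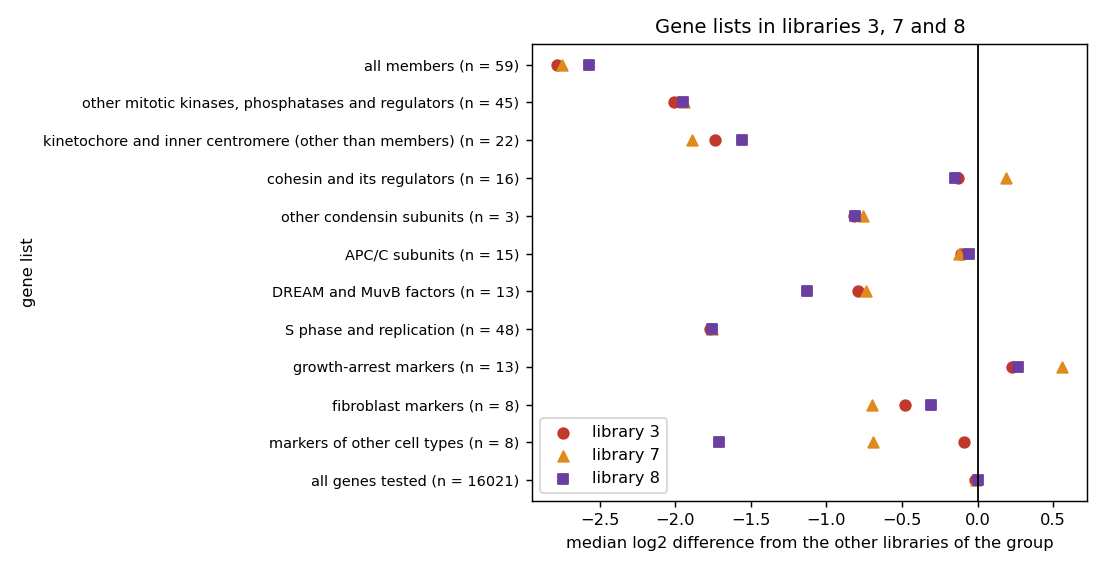
Median log2 difference of each gene list (vertical axis, with the number of genes tested) between library 3, 7 or 8 and the other libraries of its group. The 59 genes lie at -2.78, -2.75 and -2.57, S phase genes at -1.77, -1.76 and -1.76, and all genes tested at -0.02, -0.01 and 0.

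Markers of growth arrest and of cell type were read beside these values, and their part in the difference was not tested. Of 17 growth-arrest genes 13 were tested, with medians of 0.23, 0.56 and 0.27 in libraries 3, 7 and 8. Of the 13, 2, 3 and 0 were at least 2-fold higher, against 6.24%, 7.52% and 6.55% of all genes tested. At least 2-fold lower were 1, 0 and 0. The mean log2 value of the 17 overlapped, at 8.70 to 8.80 in the 3 libraries against 8.07 to 8.89 in the others. The growth-arrest genes named next were chosen after their values were seen. Cdkn1a, which encodes the CDK inhibitor p21, stood at 26261, 22033 and 18510 in libraries 3, 7 and 8, at 19640 and 17731 in the SUN1L libraries 15 and 19, and at 7663 to 12098 in the other 13. Btg1, an antiproliferative gene, stood at 6944 to 7157 against 3286 to 5083. Fibroblast markers were present in all libraries, with the sum of the 8 between 585920 and 694669 in libraries 3, 7 and 8 and between 587020 and 939447 in the others. Their mean log2 value did not overlap, at 14.51 to 14.64 in the 3 libraries against 15.10 to 15.77, and the list had median log2 differences of -0.48, -0.70 and -0.31, with 3 of 8 at least 2-fold lower in each. Vim stood at 41866 to 49860 against 98524 to 144826, Thy1 at 1132 to 1359 against 2364 to 4694 and S100a4 at 9204 to 10628 against 21249 to 34200. Sparc was also lower without overlap, at 22713 to 29411 against 30737 to 57115, while Fn1 overlapped (321195 to 477571 against 135350 to 446489), as did Col1a1, Col1a2 and Pdgfrb. Of 13 markers of other cell types 8 were tested, and their sum lay between 379 and 462 in the 3 libraries and between 371 and 1593 in the others. The 8 had median log2 differences of -0.09, -0.69 and -1.71 in libraries 3, 7 and 8. Of them 1, 3 and 5 were at least 2-fold lower, against 7.86%, 8.46% and 9.63% of all genes tested. At least 2-fold higher were 1, 0 and 2. Epcam, Emr1, Myog, Myod1 and Rbfox3 were at or near the lowest value throughout, which does not hold for every marker of the list.

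The first comparison asked what LINC disruption did on the soft gel. All 59 genes were lower in SUN1L than in KDEL cells on 1 kPa, and the median of their log2 fold changes was -1.19 (median SE 0.97, 3 libraries each), within a range from -1.61 (Mki67) to -0.26 (Bub3). By limma none of the 59 was called at an adjusted p under 0.05 and 2-fold, where 0.0874% of all genes tested were, and none had an unadjusted p under 0.05, where 4.54% did. The z-test of proportions leaves out the spread between libraries and takes its fold from the group means of the values. It called none, but some genes lay near its 2-fold cut-off, as Nuf2 with means of 918.9 in SUN1L and 1819 in KDEL cells. The study, with its own z-score test and 2-fold cut-off, listed M phase and chromosome segregation among the over-represented processes on the soft gel. With the runs of serial numbers as a replicate block, each run holding 1 library of every untreated group, 31 of the 59 had an unadjusted p under 0.05, all lower, where 14.1% of all genes did, and 0 were called. Libraries 3, 7 and 8 lie in the same run, with library 4, whose mean of 11.51 was not low. This count is therefore not separate from the low values that singled those libraries out, and no blocked fit was made without them. Median 95% confidence limits lay 2.15 log2 units to either side. The 3 genes with the smallest p were Ckap5 (log2 fold change -0.39, SE 0.24, adjusted p = 0.93), Spc25 (-1.14, SE 0.73) and Kif11 (-1.46, SE 1.01).

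The size of that difference rested on library 3. Without libraries 3, 7 and 8 the median was -0.28 (median SE 0.21), still with none of the 59 genes higher, and 0 were called (0.0437% of all genes were). That alternative was added after the data were seen, and it removes libraries because of these genes. Of the 59, 8 (13.6%) then had an unadjusted p under 0.05, against 4.92% of all genes, and all 8 were lower in SUN1L cells: Ckap2l, Bub1, Cenpf, Kif20b, Kif11, Spc25, Nuf2 and Hmmr. The smallest adjusted p among them by limma was 0.851, for Ckap2l, a spindle protein, with values of 2035, 1857 and 2080 in KDEL cells and 1564 and 1643 in SUN1L libraries 15 and 27 (log2 fold change -0.31, SE 0.10). Cenpf, a large kinetochore protein, stood at 7377, 6661 and 7659 in KDEL cells and at 5175 and 6015 in these SUN1L libraries.

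Counted by library, every SUN1L value on 1 kPa lay below every KDEL value for 27 of the 59 genes, or 45.8%, against 7.86% of all genes tested. Library 3, singled out for low values of such genes, lay below every KDEL value for all 59 genes. The same 27 genes were therefore bound to do so without library 3, and their number is no check on it. Without it the share of all genes was 10.3%, which is the fairer share to set beside the 45.8%. They were 5 of the 7 centromere and outer kinetochore genes, 5 of the 8 spindle-associated genes, 4 of the 8 kinesins, 3 of the 5 checkpoint genes, 3 of the 4 cytokinesis genes and 3 of the 6 condensin and topoisomerase genes, with Cdk1, Pttg1, Mki67 and Cdca2. The 3 mitotic kinases and 4 passenger complex genes overlapped between the groups. Library 15 was the lowest of the 14 grouped libraries other than 3, 7 and 8 for 38 of the 59 genes, and it also had the Cdkn1a value of 19640 given above, where library 27 had 11826.

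On the stiff gel the difference between SUN1L and KDEL cells was small and had no steady sign. The median log2 fold change was -0.12 (median SE 0.97), 51 of the 59 genes were lower and 8 higher, and the values ran from -0.40 (Spc24) to 0.23. Each group held 1 low library, 7 in SUN1L and 8 in KDEL cells. Without them the median was -0.09 (median SE 0.23), with 46 genes lower and 13 higher. Leaving out library 7 alone moved the median to 0.76, and leaving out library 8 alone moved it to -1.02. None of the 59 was called with all libraries (0.0624% of all genes were) or without the 3 (0.0312%), and none had an unadjusted p under 0.05, against 2.53% and 3.89% of all genes. The smallest p values by limma belonged to Bub3 (-0.08, SE 0.20), Spc24 (-0.40, SE 0.94) and Kif20a (-0.30, SE 1.03), all with an adjusted p of 1. Without libraries 7 and 8 Ckap2l alone had every SUN1L value below every KDEL value, with 1901 and 1706 against 1952 and 2236, as did 10.2% of all genes tested.

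Rigidity was compared within each line. In KDEL cells all 59 genes were lower on 308 kPa than on 1 kPa, with a median of -0.81 (median SE 0.97) and the smallest p for Kif18a (-0.83, SE 0.65), Smc4 (-0.72, SE 0.64) and Kif20b (-0.94, SE 0.87). This difference rested on library 8. Without it the median was 0.04, with 38 genes higher and 21 lower, and Kif20b, for example, had 3673, 3152 and 3700 on 1 kPa and 541, 2896 and 3877 on 308 kPa. No gene was called in either fit (0% of all genes were), and none had an unadjusted p under 0.05 (1.37% and 1.84% of all genes).

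In SUN1L cells 58 of the 59 genes were higher on 308 kPa, with a median of 0.23 (median SE 0.97), and each rigidity held 1 low library. Without libraries 3 and 7 the median was 0.22 (median SE 0.23) and 56 genes were higher. For 20 genes both remaining libraries on 308 kPa then lay above both on 1 kPa, as in 9.32% of all genes tested. They included Ccnb1 (3895 and 3813 against 2920 and 3646), Cdk1, Pttg1 and 5 of the 8 spindle-associated genes. With all libraries the smallest p belonged to Pttg1 (0.49, SE 0.63), Ckap5 (0.15, SE 0.24) and Bub3 (0.11, SE 0.20), each with an adjusted p of 1 by limma. None of the 59 was called with all libraries, as in 0% of all genes, or without the 3 libraries, as in 0.00624%, and 0 had an unadjusted p under 0.05 (1.93% and 2.98% of all genes). Leaving out library 3 alone gave a median of -0.69 and leaving out library 7 alone a median of 1.15.

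The interaction asked whether the effect of rigidity differed between the lines. The difference of the differences was above 0 for all 59 genes, with a median of 1.03 log2 units (median SE 1.38), and none was called (0% of all genes were) or had an unadjusted p under 0.05 (0.905%). Ckap2 (0.72, SE 0.67), Pttg1 (0.94, SE 0.89) and Ckap5 (0.34, SE 0.34) had the smallest p, each with an adjusted p of 1 by limma. Without libraries 3, 7 and 8 the median was 0.19 (median SE 0.31), 58 genes were above 0, and again 0 were called (0.00624% of all genes) or had an unadjusted p under 0.05 (1.53%).

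With the myosin pathway inhibited, KDEL cells on 308 kPa had higher values than the untreated group for all 59 genes with Y27632 (median log2 fold change 0.77, median SE 0.68) and for 58 of 59 with blebbistatin (median 0.69, median SE 0.76). Both comparisons use the same untreated libraries, of which library 8 was the low one. Anln, the scaffold of the contractile ring that binds actin, myosin and RhoA, stood at 1827, 8509 and 10144 untreated, at 8216, 8343 and 9115 with Y27632 and at 8365 and 11697 with blebbistatin. For Anln, 9115 lay between the values of untreated libraries 20 and 32, while 8216, 8343 and 8365 lay just below them and 11697 above. Without library 8 the medians were -0.09 (median SE 0.22) and -0.13 (median SE 0.24), with 43 and 48 of the 59 genes lower.

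For Y27632 the smallest p belonged to Spc24 (1.13, SE 0.67), Nusap1 (0.87, SE 0.59) and Ckap2 (0.54, SE 0.37), each with an adjusted p of 0.854 by limma, and for blebbistatin to Ckap5 (0.30, SE 0.22), Smc2 (0.76, SE 0.60) and Anln (0.87, SE 0.69), each with an adjusted p of 1. None of the 59 was called for either inhibitor with all libraries (0% of all genes were) or without library 8 (0.0187% of all genes with Y27632 and 0% with blebbistatin). None had an unadjusted p under 0.05, against 5.80% and 3.04% of all genes with all libraries and 7.00% and 4.29% without library 8.

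Between the inhibitors, which target different proteins of the same pathway at different doses, the 59 genes differed little. The median of Y27632 minus blebbistatin was 0.06 (median SE 0.76, 3 and 2 libraries), with 43 genes higher and 16 lower, and the spread was taken in part from the untreated group that holds library 8. Without that library the median SE was 0.22. Ckap5 was the only gene whose groups did not overlap, with 5593, 4709 and 5305 under Y27632 and 5598 and 6160 under blebbistatin (log2 fold change -0.18, SE 0.22, adjusted p = 1 by limma), where 8.98% of all genes lay lower in every Y27632 library. Cdc25b (0.24, SE 0.60) and Spc25 (0.21, SE 0.57) had the next smallest p. No gene was called (0% of all genes were) or had an unadjusted p under 0.05 (2.32%, or 3.75% without library 8).

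**Figure D4:**
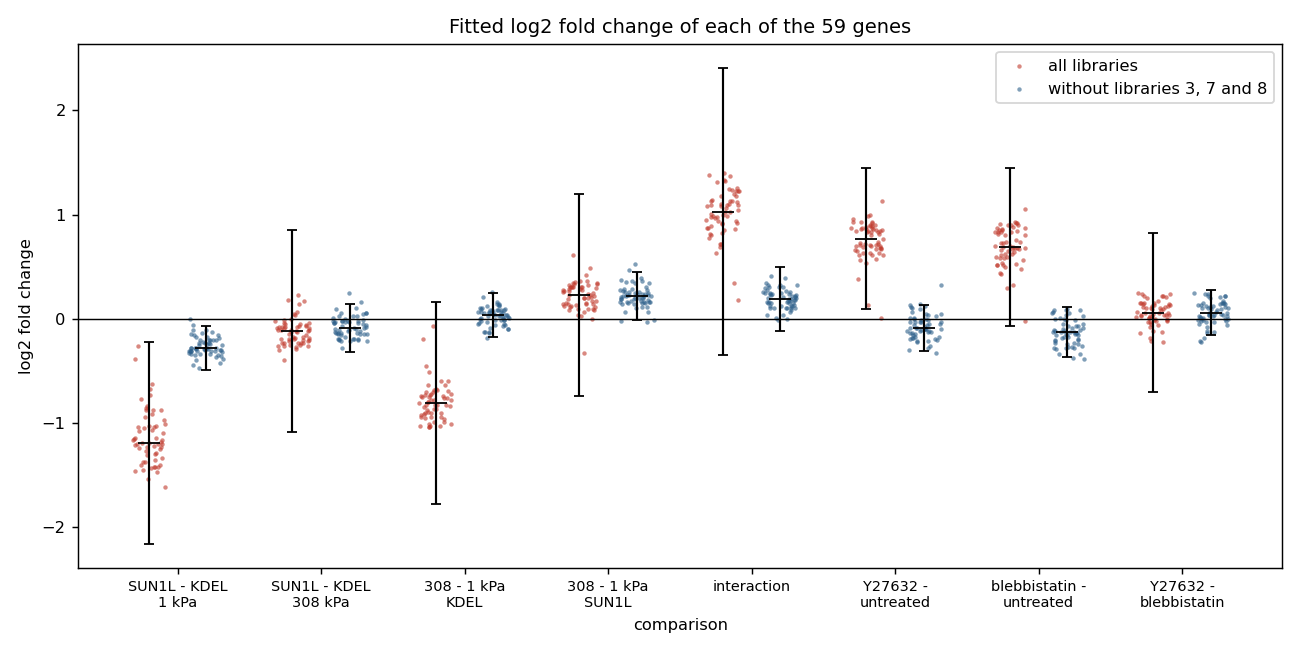
Fitted log2 fold change of each of the 59 genes in the 8 comparisons (horizontal axis), with all libraries in red and without libraries 3, 7 and 8 in blue. The black mark is the median and its bar the median SE of a single gene to either side, and the medians of -1.19, -0.81, 0.77 and 0.69 for SUN1L on 1 kPa, rigidity in KDEL cells, Y27632 and blebbistatin become -0.28, 0.04, -0.09 and -0.13.

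Among the 14 grouped libraries other than 3, 7 and 8, the highest value of a gene was 1.35 to 2.16 times its lowest, with a median of 1.72 over the 59 genes. Ckap2 varied least and Spc24 most. Library 34, without a group, had a mean log2 value of 11.73 over the 59 genes and the highest value of all 18 libraries for 14 of them, as for 8.18% of all genes tested. Library 32, of untreated KDEL cells on 308 kPa, was the highest of the 14 for 39 of the 59 genes, and library 10, with blebbistatin, was the lowest for 12. For 12 of the 59 genes the deposited span overlaps that of another gene (Ccna2, Cdc25b, Cdc25c, Cdc20, Ube2c, Bub3, Kif20a, Kif4, Kif18a, Ncapg, Nusap1 and Foxm1). In 11 of them the other gene lies on the opposite strand. How strand was used in counting is not given in the sources used here, so reads of these pairs may not be told apart. Bub3, the gene that differed least in libraries 3, 7 and 8, lies wholly within the deposited span of Fgfr2 on the other strand.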

How the data were processed

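RNA of 18 cultures of NIH 3T3 cells was measured by poly(A) RNA sequencing with paired-end reads. The authors mapped reads with TopHat2 (version 2.0), removed low-quality, discordant and duplicate reads, and deposited, for each gene and library, a normalised signal value made by AvadisNGS with TMM scaling. The methods name the build mm9, but the deposited starts of 42 of 48 genes lie in RefSeq promoter windows of GRCm38.p6, so coordinates are given as deposited and read as that build. Duplicate removal can hold down highly expressed genes, and the ERCC spike-in was not analysed here. The signal values were not counts: only 13.5% to 15.4% of values per library were whole multiples of a read's step (tolerance 0.02 reads), so no count test was run.

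Genes that passed the lowest value in 3 or more of 18 libraries were tested with limma 3.58.1 (R 4.3.3) on log2(value + 1), with a trend and 1 mean per group, in a fit of 12 untreated libraries and a fit of 8 KDEL libraries on 308 kPa. A call needed a Benjamini-Hochberg adjusted p under 0.05 over all 16021 genes and a 2-fold change, and tests were two-sided. Fold changes on this scale understate changes of low genes. The study describes biological replicates, which the labels do not number, so p-values measure the spread between these libraries. An exact test of 3 against 3 libraries could not give p below 0.1. The fit was tested on simulated data with noise scaled down from the observed spread within groups. That test therefore does not show how the fit performs at the spread of these libraries. Genes given in every library were 1 or 2 of each role. The others named in a comparison were the 3 with the smallest p, and further names, also those compared in libraries 3, 7 and 8, were chosen after their values were seen. The members, gene lists and motifs were chosen with earlier results of these data known. Alternatives were other filters, pseudocounts, scalings, weights, fits and tests, a replicate block on serial-number runs (a pairing the labels do not state, where deviations from the group means of libraries of the same run correlated at 0.10 to 0.67 across genes), each library left out, library 34 in either inhibitor group, and, chosen after seeing the data, all libraries but 3, 7 and 8. Tables were read with Python 3.11.15 and pandas 2.3.3.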

Additional observations from a re-analysis of the deposited data

Results flagged for a closer look

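Library 34, whose labels conflict and which was put in no group for that reason, had the highest value of all 18 libraries for 14 of the 59 genes, where 8.18% of all genes tested did. They were Ccnb1 (5098), Ccna2 (6026) and Cdc25b (4172) of mitotic entry, Espl1 (3939), which encodes separase, Mad2l1 (4798) of the checkpoint, Kif11 (4042), Ncapg (2943), Top2a (28855), and the spindle genes Nusap1 (1914) and Hmmr (5055). All 4 cytokinesis genes were among them, with Prc1 at 4884, Ect2 at 4228, Anln at 13302 and Racgap1 at 11271. Espl1 and Racgap1 stood 1.38 and 1.36 times above the highest of the other 17 libraries, and the other 12 by at most 1.14 times. Above the 3 untreated KDEL libraries on 308 kPa were 20 of the 59 genes, against 21.5% of all genes tested. The column of these values carries another number than the title of library 34 and was matched to it by the label in its header. With 1 library and no group, nothing was tested here.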

How the results depend on the processing

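No gene of the 59 was called under any of the alternatives in any of the 8 comparisons, and all 372 recomputed counts and medians stayed within 1.11 log2 units, the SD between libraries of a group, or at 0 calls. That SD is large because of libraries 3, 7 and 8, and medians changed sign without 1 of them. Leaving out each library in turn gave medians from -1.73 to -0.28 for SUN1L on 1 kPa, -1.02 to 0.76 for SUN1L on 308 kPa, -1.39 to 0.04 for rigidity in KDEL cells, -0.69 to 1.15 for rigidity in SUN1L cells, 0.15 to 1.97 for the interaction, -0.09 to 1.34 for Y27632, -0.13 to 1.28 for blebbistatin and -0.11 to 0.26 between the inhibitors. Without library 32, 4 of the 59 genes had an unadjusted p under 0.05 with Y27632. The share of all genes was not taken for that fit, so this count has nothing to be set beside. Of 558 recomputed fold changes of single genes, 14 changed sign, and the cause was not tested. With array weights Kif20a on 308 kPa came to 0.01. Under the replicate block, Y27632 minus blebbistatin came to -0.05 for Cdc25b and -0.03 for Spc25. Leaving out libraries gave -0.05 to 0.47 for Spc25 between the inhibitors. On 308 kPa it gave -0.26 to 0.11 for Bub3, -1.22 to 0.62 for Spc24 and -1.20 to 0.75 for Kif20a in SUN1L against KDEL cells. For rigidity in SUN1L cells it gave -0.05 to 1.07 for Pttg1, -0.06 to 0.31 for Ckap5 and -0.06 to 0.27 for Bub3. The replicate block on the runs of serial numbers changed no call. For rigidity in KDEL cells it gave 1 of the 59 genes an unadjusted p under 0.05, against 5.37% of all genes tested. The z-test of proportions, which leaves out the spread between libraries, gave 38 to 59 genes an unadjusted p under 0.05 in the 7 comparisons of group pairs, and 0 calls. The share of all genes at that p was not taken, so these counts are no result about the 59 genes. Library 34 as blebbistatin gave a median of 0.82 for blebbistatin, and as Y27632 one of 0.86 for Y27632.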
